A study of Mus musculus with 6 samples.

Results

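The genes described here are 3 transcription factors of trophoblast and epithelium (Elf5, Elf3 and Tfap2c) and 4 keratins of simple, single-layered epithelium (Krt7, Krt8, Krt18 and Krt19), read in dissected pieces of ETX-embryos. An ETX-embryo is an embryo-like structure that mouse embryonic stem cells, trophoblast stem cells and XEN cells (stem cells of the extraembryonic endoderm) form together in culture, here without any further treatment. Per the labels' protocols, the embryonic line carried a GFP reporter of T/Brachyury, the compartment of trophoblast stem cells was removed, and what remained was parted lengthwise. The GFP-positive piece was taken as prospective posterior and the GFP-negative piece as prospective anterior. Each piece gave 1 bulk RNA library, so 3 individuals (A, B and C) gave 3 anterior and 3 posterior libraries. The 7 genes were chosen by name from the rows of the table, with posterior minus anterior values of these libraries already known. All 7 are among its 12826 rows, every one of which exceeds 1 FPKM in at least 1 library, and all 7 were in the fit of 10914 genes that average 1 FPKM or more. FPKM counts sequenced fragments per transcript length and library size. Values are log2(FPKM + 1) unless FPKM is named, 3 values in a row stand for embryos A, B and C in that order, and the anterior and posterior values of the 7 genes are a description and carry no test of that difference. Elf5 came nearest to the limit on the mean, at 1.43 FPKM, and its highest library was at 8.09 FPKM.

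Trophoblast is the outer lineage of the mammalian conceptus and gives rise to the fetal part of the placenta. Elf5, an ETS factor, and Tfap2c, the AP-2 factor also called AP-2 gamma, belong to the circuit that keeps mouse trophoblast stem cells in their state. Tfap2c also acts in primordial germ cells and in pluripotent cells, so it does not mark trophoblast alone. Elf3, another ETS factor, is used by many epithelia. Keratins form filaments as pairs of a type II chain (Krt7 or Krt8) with a type I chain (Krt18 or Krt19). Krt8 and Krt18 are the first keratins of the mouse embryo and are known from trophectoderm and from extraembryonic endoderm as well.

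The libraries differ in ways that touch all 7 genes. Between 9335 and 11082 genes were listed above 0 in the anterior libraries and between 10260 and 12141 in the posterior ones, and the median gene was higher in the posterior piece by 0.43 (by embryo 0.91, 0.02 and 0.17). The absolute depth is unknown, and a value of 0 is reported as listed at 0. T, whose reporter chose the pieces, followed the labels in embryos A and B (0 and 0 anterior, 2.59 and 4.05 posterior). In embryo C it was at 5.44 in the library labelled anterior and 0 in the one labelled posterior. In embryo C, T thus goes against the labels on which every direction given for Tfap2c, Elf3 and the keratins rests. Eomes (1.25 anterior, 3.72 posterior) and Spry4 (0 and 3.14), which are also used in the streak or in FGF signalling, follow the labels in embryo C. Their posterior direction was known when they were chosen. The FGF receptor gene Fgfr1 (4.83 anterior, 1.84 posterior) and Bmp4 (3.97 and 2.01) go against the labels in that embryo. Bmp4 was also slightly higher in the anterior piece of embryo A (1.22 and 1.02). These examples come from the third trophoblast list below, whose 15 genes had a median difference of 0.49 in embryo C. Over all fitted genes it was 0.17, and the list was made with the posterior direction of some of its genes known.

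The starts of the keratin genes are shown first, because Tfap2c and the Elf factors bind short DNA words and 3 of the keratins have a RefSeq promoter entry. Each sequence runs 5′ to 3′ from 250 bases before to 50 bases after the RefSeq start (build GRCm38.p6). Capitals mark the AP-2 word GCCNNNGGC and the ETS word AGGAAG, searched on both strands. Krt7 lies at chr15:101412153-101412452 on the plus strand, Krt8 at chr15:102004293-102004592 on the minus strand and Krt18 at chr15:102027966-102028265 on the plus strand.
Krt7: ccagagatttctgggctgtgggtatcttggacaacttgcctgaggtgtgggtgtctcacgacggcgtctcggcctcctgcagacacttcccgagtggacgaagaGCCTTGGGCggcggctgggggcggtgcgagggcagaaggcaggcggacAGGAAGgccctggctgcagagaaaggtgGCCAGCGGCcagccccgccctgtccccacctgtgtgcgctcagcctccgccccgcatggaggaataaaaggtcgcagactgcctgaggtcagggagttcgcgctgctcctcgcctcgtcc
Krt8: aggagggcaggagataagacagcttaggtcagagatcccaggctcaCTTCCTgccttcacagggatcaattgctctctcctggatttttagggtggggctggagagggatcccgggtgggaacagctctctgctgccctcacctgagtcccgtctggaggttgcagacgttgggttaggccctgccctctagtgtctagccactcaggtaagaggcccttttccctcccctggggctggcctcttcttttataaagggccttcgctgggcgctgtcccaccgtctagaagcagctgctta
Krt18: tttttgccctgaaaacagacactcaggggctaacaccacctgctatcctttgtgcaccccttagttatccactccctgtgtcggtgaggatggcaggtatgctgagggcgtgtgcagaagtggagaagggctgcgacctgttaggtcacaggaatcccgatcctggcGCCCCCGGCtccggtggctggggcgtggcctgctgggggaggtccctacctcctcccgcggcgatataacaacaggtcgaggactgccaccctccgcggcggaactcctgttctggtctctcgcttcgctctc

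Counting back from the start, with -1 as the base before it, the AP-2 word begins at -146 and -70 in Krt7 and at -83 in Krt18, and the Krt8 window has none. The ETS word begins at -98 in Krt7 and at -204 in Krt8, and the Krt18 window has none. Of all 32851 RefSeq promoter windows of this length, 16.6% hold the AP-2 word and 35.35% the ETS word. Krt7 also holds the GC box word GGGCGG at 4 places (35.7% of windows hold it), of which the match at -141 overlaps the AP-2 word at -146. The 2 entries of Elf5 and the entry of Elf3 hold neither the AP-2 nor the ETS word, and of the 7 genes 5 had an entry. A match is a string of letters and was not tested as a binding site.

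Elf5 was nearly confined to 1 library. The gene lies on chromosome 2 (103411688 to 103450989, GRCm38, plus strand) and read 0.57 in posterior A and 3.18 in posterior B (0.48 and 8.09 FPKM), while posterior C and the 3 anterior libraries list it at 0. Anterior and posterior values overlap at 0. In these bulk pieces, fewer cells that use a gene and less RNA per cell cannot be told apart. In posterior B, 46.3% of the fitted genes lay below Elf5. Posterior B was also the library with the fewest genes at 0 (5.34% of the table), against 27.2% in anterior C. The posterior minus anterior difference was 1.25 ± 1.70 (SD, n = 3), and it was 0.28 without embryo B.

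Tfap2c was higher in the posterior piece of every embryo. It lies on chromosome 2 (172549593 to 172558622, plus strand) and was at 0, 2.12 and 1.14 anterior and 4.45, 5.09 and 5.73 posterior. In FPKM this is 0, 3.36 and 1.20 against 20.9, 33.0 and 51.9, so the lowest posterior library stood above the highest anterior one. The difference was 4.45, 2.96 and 4.59 in embryos A, B and C, with a mean of 4.0 ± 0.95 (SE of the fit), and 3.71 without embryo C. All 3 posterior libraries were above all 3 anterior ones for 12.3% of the fitted genes, and the posterior piece was higher in 3 of 3 embryos for 21.5%. Since these values were known when the gene was chosen, nothing is read from its place among them.

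Elf3 ran the other way. It lies on chromosome 1 (135253575 to 135258568, minus strand) and was at 3.97, 5.70 and 4.18 anterior and 2.68, 1.99 and 2.25 posterior. In FPKM the anterior libraries were at 14.7, 51.0 and 17.1 and the posterior ones at 5.43, 2.97 and 3.75, and the domains do not overlap. The difference was -1.28, -3.71 and -1.93 in embryos A, B and C, with a mean of -2.31 ± 0.94 (SE of the fit), and -2.50 without embryo C. All 3 anterior libraries were above all 3 posterior ones for 3.77% of the fitted genes, and the anterior piece was higher in 3 of 3 embryos for 8.25%. Elf3 exceeded Tfap2c by 3.97, 3.58 and 3.04 anterior and lay below it by 1.77, 3.09 and 3.48 posterior, so the order of these factors turned over in each embryo. An antisense gene, Gm26642, spans Elf3, and reads of both cannot be told apart where strand is not counted.

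**Figure D1:**
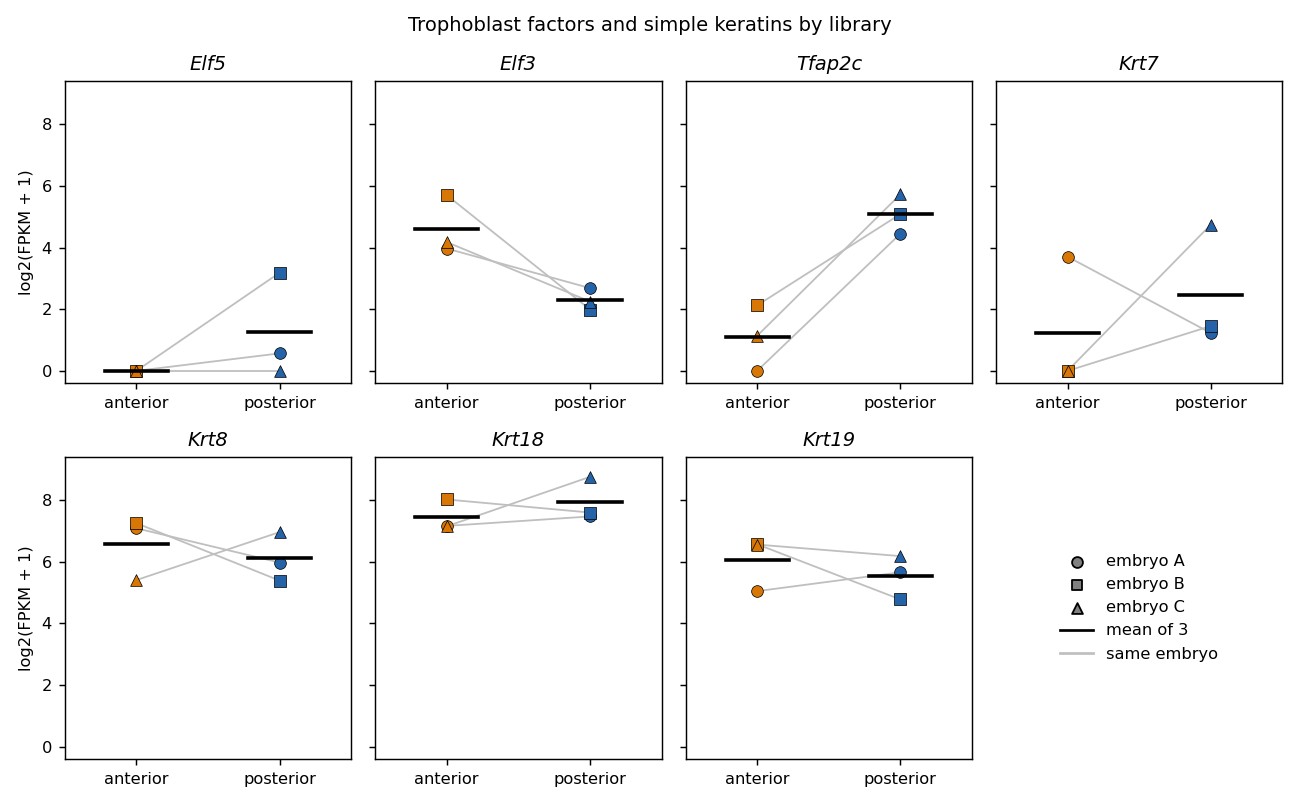
Vertical axes give the level of each gene in log2(FPKM + 1), with a panel for each of the 7 genes and a point for each library, orange for anterior and blue for posterior pieces of the embryos (circle for A, square for B, triangle for C). Grey lines join pieces of an embryo and black bars are means of 3 libraries. Tfap2c and Elf3 separate the domains in opposite directions, Elf5 is above 1 only in posterior B, and the lines of Krt7, Krt8, Krt18 and Krt19 cross.

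The AP-2 relatives split. Tfap2a, the AP-2 factor of surface ectoderm, neural crest and trophoblast, was at 5.35, 2.99 and 5.27 anterior and 1.39, 1.12 and 1.44 posterior. Its difference of -3.22 ± 0.98 (SE) did not pass in limma (adjusted p = 0.55, unadjusted p = 0.0089). Tfap2c stood below Tfap2a by 5.35, 0.87 and 4.13 anterior and above it by 3.06, 3.97 and 4.29 posterior. Among the ETS relatives of Elf3 and Elf5, Elf1 (a difference of 0.67 ± 0.94) and Elf2 (-0.24 ± 1.28) did not separate the domains. Elf4 reached at most 2.40, in anterior A. Tfap2b, Tfap2d, Tfap2e, Ehf and Spdef are not analysed here. Of 20 surface ectoderm and amnion genes, Tfap2a among them, 11 were fitted, 3 higher in the posterior and 8 in the anterior domain. Over all fitted genes 64.9% were higher in the posterior domain. Tfap2a and Gata3 also belong to the first trophoblast list below, so the 2 lists are not separate. In limma 0 passed (2 posterior above and 3 anterior above at an unadjusted p under 0.05, with Tfap2a 1 of the 3). Over all 10914 fitted genes these counts were 790 and 86. The part of such cells in the Elf3 values was not tested.

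Krt18 was the most abundant keratin in every library and had the lowest SD of the 7 genes. It lies on chromosome 15 (102028180 to 102032027, plus strand) and was at 142, 257 and 140 FPKM anterior and 175, 192 and 429 FPKM posterior. The domains overlap, and posterior C stands above the other 5 libraries. Between 93.6% and 98.1% of the fitted genes lay below Krt18 in any library. Its SD over the 6 libraries was 0.61 in log2, and 64.9% of the 259 genes within 0.5 of its mean level had a higher SD. The posterior minus anterior difference was 0.31, -0.42 and 1.60 in embryos A, B and C (mean 0.50 ± 0.65, SE), and -0.06 without embryo C.

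Krt8, the type II partner of Krt18, followed it only in part. The gene lies 23697 bases from Krt18 on the opposite strand (chromosome 15, 101996698 to 102004482). It was at 134, 151 and 41.2 FPKM anterior and 61.6, 40.7 and 123 FPKM posterior. Anterior A and B and posterior C are the 3 high libraries, so the anterior piece was higher in embryos A and B and the posterior piece in embryo C. The differences were -1.11, -1.86 and 1.56 (mean -0.47 ± 0.81, SE), -1.49 without embryo C and 0.22 without embryo B. Krt18 (0.31, -0.42 and 1.60) differed in the same direction as Krt8 in embryos B and C but not in A. Krt8 per Krt18, both in FPKM, was 0.95, 0.59 and 0.29 anterior and 0.35, 0.21 and 0.29 posterior, near parity in anterior A alone. Over the 6 libraries Krt8 and Krt18 correlated at r = 0.47 in log2, and 1700 of the 10913 other genes lay closer to Krt8. These 6 points are pieces of 3 embryos and differ in how many genes are above 0. A processed pseudogene, Krt8-ps, lies on chromosome 7, and reads of near-identical copies can be split between them.

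Krt19, a type I keratin that can pair with either type II chain, was at 31.9, 93.4 and 92.8 FPKM anterior and 49.3, 26.3 and 71.4 FPKM posterior. The gene lies on chromosome 11 (100140810 to 100148665, minus strand). Anterior B and C were the 2 highest libraries and posterior B the lowest, and the domains overlap. The differences were 0.61, -1.79 and -0.37 (mean -0.52 ± 0.76, SE), and 0.12 without embryo B. Krt19 per Krt18 ranged from 0.14 in posterior B to 0.66 in anterior C.

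Krt7, a type II keratin of ducts, placenta and other simple epithelia, was the patchy one of the 4. It lies on chromosome 15 (101411043 to 101430313, plus strand) and was at 12 FPKM in anterior A and listed at 0 in anterior B and C. In posterior A, B and C it was at 1.34, 1.74 and 25.8 FPKM. The domains overlap, anterior A and posterior C being the high libraries, and the mean difference was 1.24 ± 1.34 (SE), or -0.51 without embryo C. Krt8 made up 82.7% to 100% of the summed FPKM of Krt7 and Krt8 in any library. The antisense gene Gm671 overlaps the gene start of Krt7 given here (101411043). It ends at 101412311, inside the printed promoter window but before the RefSeq start, which lies further along the gene. Gm36026, a long noncoding RNA gene, overlaps the start of Krt8 on the other strand.

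**Figure D2:**
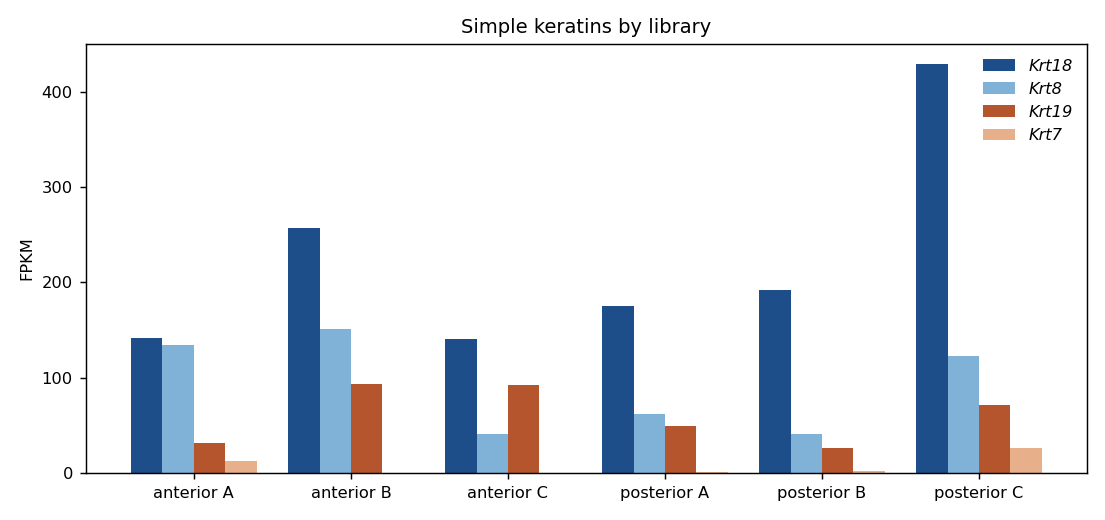
FPKM of Krt18, Krt8, Krt19 and Krt7 on the vertical axis, 1 group of bars per library. Krt18 is the tallest bar in each library (140 to 429 FPKM), Krt8 is close to it only in anterior A, and Krt7 is above 10 FPKM only in anterior A (12) and posterior C (25.8).

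Type I chains outweighed type II chains in every library. The summed FPKM of Krt7 and Krt8 per summed FPKM of the type I rows (Krt10, Krt17, Krt18, Krt19, Krt23 and Krt222) was 0.83, 0.43 and 0.18 anterior and 0.27, 0.19 and 0.30 posterior. Of 30 other keratins looked for, among them the basal pair Krt5 and Krt14 of stratified epithelium, 4 had a row, and the 4 simple keratins held 98.1% to 99.9% of all keratin FPKM. The highest of the other 4 was Krt10, a keratin of differentiating skin, at 2.13 in anterior B. Krt17, Krt23 and Krt222 reached at most 1.05, 1.73 and 1.52.

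None of the 7 genes passed limma's F test of differences among the 3 individuals (adjusted p 0.996 to 0.998). This test called 0% of the 10914 fitted genes, with 302 at an unadjusted p under 0.05. The test of domains likewise called 0% of genes in either direction, although 790 genes (posterior above) and 86 (anterior above) had an unadjusted p under 0.05. A difference had a standard error of 0.96 at the median gene.

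Other trophoblast genes were read beside the 3 factors in 3 lists. The first holds 15 genes of trophoblast stem cells and extraembryonic ectoderm most of which epiblast and endoderm use little (Rhox5 is used by other early cells as well), and 12 of them had a row. The list's summed level was 258, 264 and 210 FPKM anterior and 181, 564 and 233 FPKM posterior. Rhox5 alone held 322 of the 564 FPKM of posterior B, and without it the sums were 178, 234 and 210 FPKM anterior and 141, 242 and 157 FPKM posterior. Of these, Ddah1 alone held 84.0, 137 and 10.7 FPKM anterior and 92.6, 139 and 105 FPKM posterior. In anterior C Gata3 held 112 FPKM, so the sums are largely set by few genes. Of the 12 genes, 6 were highest in posterior B, the library with Elf5, where 13.3% of all fitted genes were highest. These were Ddah1, Rhox5, Rhox6, Bmp8b, Sox21 and Wnt7b. Like Elf5, the genes Bmp8b, Sox21 and Wnt7b average 1 FPKM only through posterior B (7.32, 7.51 and 5.83 FPKM there). Their peak in that library was thus set by the filter. Ddah1 (7.13 against 7.11 in anterior B) and Rhox6 (5.06 against 4.81) are near ties, so nothing is read from the 6 of 12. In the fit 6 of 12 were higher in each domain, where 64.9% of all fitted genes were higher in the posterior one. The median difference was 0.06 against 0.43 over all fitted genes. In limma 0 of 12 passed, with 1 in each direction at an unadjusted p under 0.05 (790 posterior above and 86 anterior above of all 10914). These were Rhox5 (posterior above) and Tfap2a (anterior above), which is also in the surface ectoderm and amnion list. With the libraries brought to equal distributions by quantile normalization, the list's median was -0.58 against -0.06 over all genes.

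The reproductive homeobox genes of the X chromosome, which trophoblast stem cells use, included genes listed at 0 in embryo C. Rhox6 was at 4.74, 4.81 and 0 anterior and 2.10, 5.06 and 0 posterior. Rhox9 was at 0.59, 3.20 and 0 against 1.38, 1.80 and 0. Both were thus listed at 0 in the 2 libraries of embryo C, as were Wnt7b and Plac1, a placental gene, and Elf5. Of the 12826 genes 12.6% were at 0 in both pieces of embryo C, against 3.82% for A and 3.18% for B. Of 25 visceral endoderm genes 6 were at 0 in both pieces of C (Amn, Apoa1, Apoa2, Apob, Apoc2 and Rbp4), as were 3 of 37 epithelial genes (Cldn3, Dsc2 and Marveld3), all named after their values were seen. Their relation to the trophoblast values was not tested. Rhox5 was at 6.35, 4.97 and 0 against 5.35, 8.34 and 6.27. Gata3, a trophoblast and surface ectoderm factor, was in all 6 libraries and highest in the library labelled anterior C, at 4.35, 4.84 and 6.82 against 2.80, 4.61 and 4.17. Cdx2 and Plet1, which also define the stem cell state, are not analysed here.

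The second list holds 18 genes of differentiated trophoblast, and 9 of them had a row. Hand1, a giant cell and mesoderm factor, lay between 1.55 and 2.26 in every library. Ascl2, an ectoplacental cone factor, was at 1.77, 0 and 2.13 anterior and 0.73, 0.12 and 2.90 posterior, so neither separated the domains. Dlx3, a homeobox factor of placenta and ectoderm, was at 3.48, 3.50 and 3.36 against 2.60, 1.43 and 0.79, and Nr6a1, an orphan nuclear receptor, was at 4.68, 4.92 and 6.25 against 4.56, 4.65 and 2.69, so that for these 2 genes the anterior libraries lie above the posterior ones (3.77% of all fitted genes), by a narrow gap for Nr6a1. Phlda2, an imprinted placental growth gene, had the highest mean, between 5.05 in posterior A and 9.59 in posterior C, and Cited1, a transcriptional co-regulator of trophoblast, stood above it in anterior A and B and posterior A. Cited1 is also in the visceral endoderm list, and Dlx3 and Hand1 are also in the surface ectoderm and amnion list. The levels of these genes are thus not particular to trophoblast. The median difference was -0.05, against 0.43 over all fitted genes. Here 4 genes were higher in the posterior and 5 in the anterior domain, where 64.9% of all fitted genes were higher in the posterior one. In limma 0 of 9 passed, with 0 at an unadjusted p under 0.05. Tpbpa, Prl3d1, Gcm1 and 6 other listed genes are not analysed here.

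The third list holds 15 genes that trophoblast stem cells share with epiblast, streak or germ cells, and all had a row. Eomes, needed in trophoblast stem cells and in the streak, was at 0, 0 and 1.25 anterior and 5.55, 5.20 and 3.72 posterior. Esrrb, a nuclear receptor of naive pluripotency and trophoblast stem cells, had posterior values of 1.28, 2.56 and 2.78 and was listed at 0 in each anterior library. Tead1 was higher in the anterior domain by 2.0 ± 0.70 on average (adjusted p = 0.57 in limma). Posterior values were on average above anterior ones for 11 of 15 genes (64.9% of all fitted genes), with a median difference of 0.77 against 0.43 over all fitted genes. In limma 0 of 15 passed, with 5 (posterior above) and 1 (anterior above) at an unadjusted p under 0.05. Over all 10914 fitted genes these counts were 790 and 86. Eomes, Sox2, Zfp42 and Spry4 also belong to streak, pluripotency or FGF gene groups whose posterior direction in these libraries was known when the list was made.

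Tfap2c ran closest to the third list and to other groups high in the posterior pieces, and Elf5 closest to the first. Over the 6 libraries, Tfap2c correlated with the mean of the shared list at r = 0.96, with that of 11 germ cell and naive genes at 0.93, with that of 11 mesenchyme genes at 0.91 and with that of 14 epiblast genes at 0.84. With the 12 genes of the first list its r was 0.07. Since both the direction of Tfap2c and that of several of these genes were known when they were chosen, the values restate that the posterior libraries are higher and support nothing further. Elf5 correlated with the first list at r = 0.71 and with the shared list at 0.58. Elf5 and, in the first list, Bmp8b, Sox21 and Wnt7b entered the fit only through posterior B, so the 0.71 is in part built in. Elf3 correlated with the shared list at -0.82. These are descriptions over 6 pieces of 3 embryos, in which the posterior pieces also have more genes above 0.

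**Figure D3:**
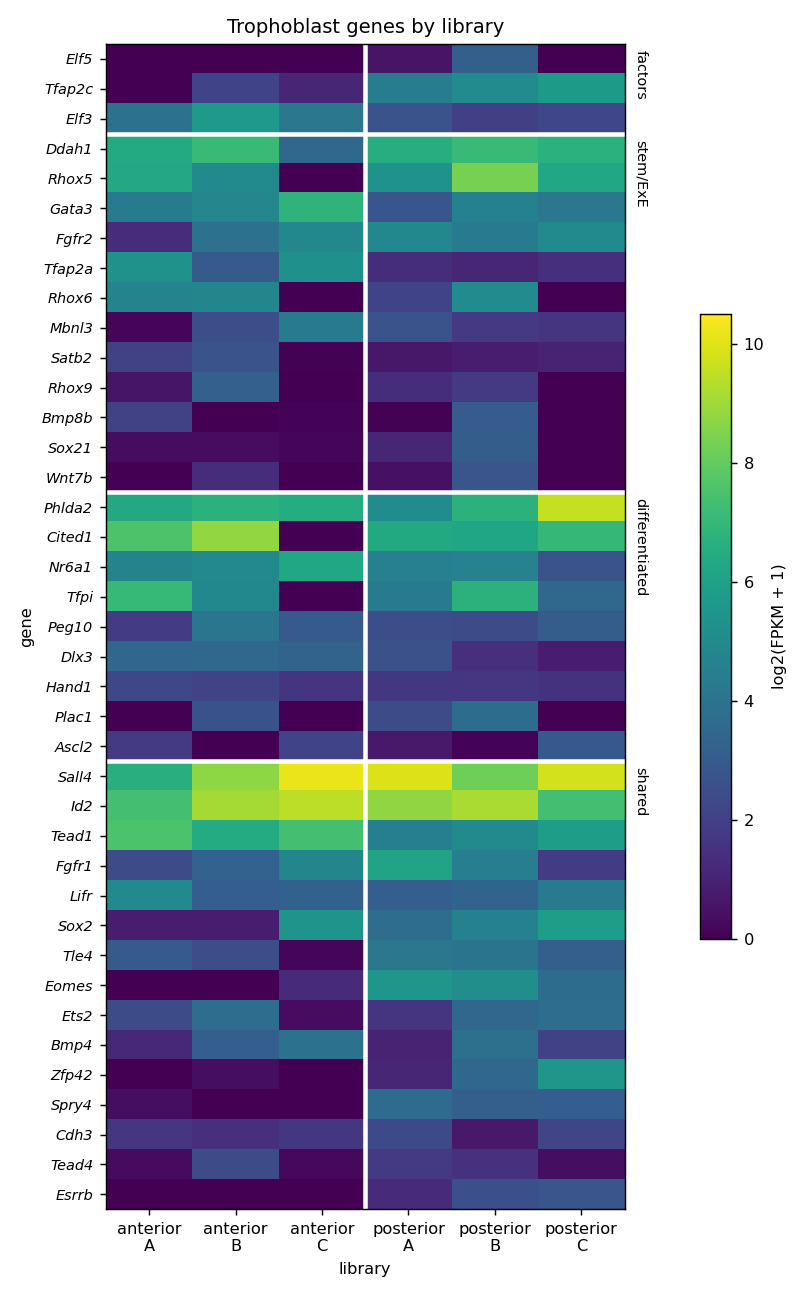
Heat map of log2(FPKM + 1) for the 3 factors and the trophoblast genes with a row, 1 row per gene and 1 column per library, with white lines between the factors, the stem cell and extraembryonic ectoderm list (stem/ExE), the differentiated list and the shared list, and between domains. Rhox6, Rhox9 and Elf5 are dark (0) in both columns of embryo C, and Eomes and Esrrb are dark or nearly so in the anterior columns.

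Genes of simple epithelium were present in all libraries, though not all of them. Of 37 listed genes with a row, 28, 30 and 29 were above 0 in the anterior libraries and 36, 37 and 33 in the posterior ones. Epcam, an epithelial adhesion molecule, was at 7.25, 7.22 and 6.96 anterior and 7.12, 7.02 and 5.24 posterior. E-cadherin (Cdh1) was at 5.54, 6.35 and 6.09 against 7.19, 6.74 and 7.16, with no overlap, as for 12.3% of all fitted genes. The difference was 1.04 ± 0.66 (SE, adjusted p = 0.68 in limma). Cdh1 is also in the epiblast list, of which all 14 fitted genes were higher in the posterior domain. Cd24a, Spint2 and Cldn7 were, with Epcam, the most abundant of the 37 listed genes that had a row. Their differences ran from -0.69 ± 0.67 for Epcam to 0.54 ± 0.77 for Cldn7. In the fit 18 of 33 were higher in the posterior and 15 in the anterior domain, with a median of 0.20 (-0.24 with quantile normalization). Over all fitted genes 64.9% were higher in the posterior domain and the median was 0.43. In limma 0 of 33 passed.

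At an unadjusted p under 0.05 in limma, 4 of 33 epithelial genes were higher in the posterior domain and 0 in the anterior. Over all 10914 fitted genes these counts were 790 and 86. None of the 4 passed after adjustment. They were named after their values were seen. Crb3, an apical polarity protein, was at 0.24, 0 and 0.32 anterior and 5.12, 3.34 and 4.85 posterior. Mal2, an apical transport protein, had posterior values of 5.30, 4.29 and 1.01 and was listed at 0 in each anterior library. Marveld2, a protein of tricellular junctions, and Ap1m2, an adaptor of epithelial sorting, were the other 2. None of the 4 keratins had all posterior libraries above all anterior ones, which 12.3% of all fitted genes had. Neither did Ap1m2 (3.89 in anterior B, 3.82 in posterior B). Krt7, Krt8, Krt18 and Krt19 correlated with the mean of the 33 epithelial genes at r = -0.40, -0.45, -0.03 and -0.14 over the 6 libraries. Of the other fitted genes, 88.6%, 90.7%, 70.9% and 77.7% had a higher r with this mean.

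Krt8 stood high in the same libraries as genes of parietal endoderm and XEN cells. The mean of these 19 genes, which include laminins and type IV collagens of the basement membrane, was 4.86, 5.56 and 1.83 anterior and 3.83, 3.89 and 4.76 posterior. Anterior A and B and posterior C are the highest 3 libraries for the list and for Krt8. Col4a1 was at 7.89, 8.12 and 3.64 against 4.31, 4.73 and 5.65. All 19 genes had a row, and 15 to 19 of them were above 0 in the anterior and 17 to 19 in the posterior libraries. Their summed level ran from 393 to 2572 FPKM in the anterior and from 569 to 1307 FPKM in the posterior libraries. Krt8 correlated with the list mean at r = 0.85, Krt18 at 0.53 and Krt19 at -0.13. With 23 visceral endoderm genes the r of Krt8 was 0.48, and with the differentiated trophoblast list it was 0.66. Of 31 visceral endoderm genes 25 had a row, with 9 to 23 above 0 in the anterior libraries (199 to 2070 FPKM in sum) and 18 to 25 in the posterior ones (1171 to 4014 FPKM). The part of endoderm cells in the keratin values was not tested.

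**Figure D4:**
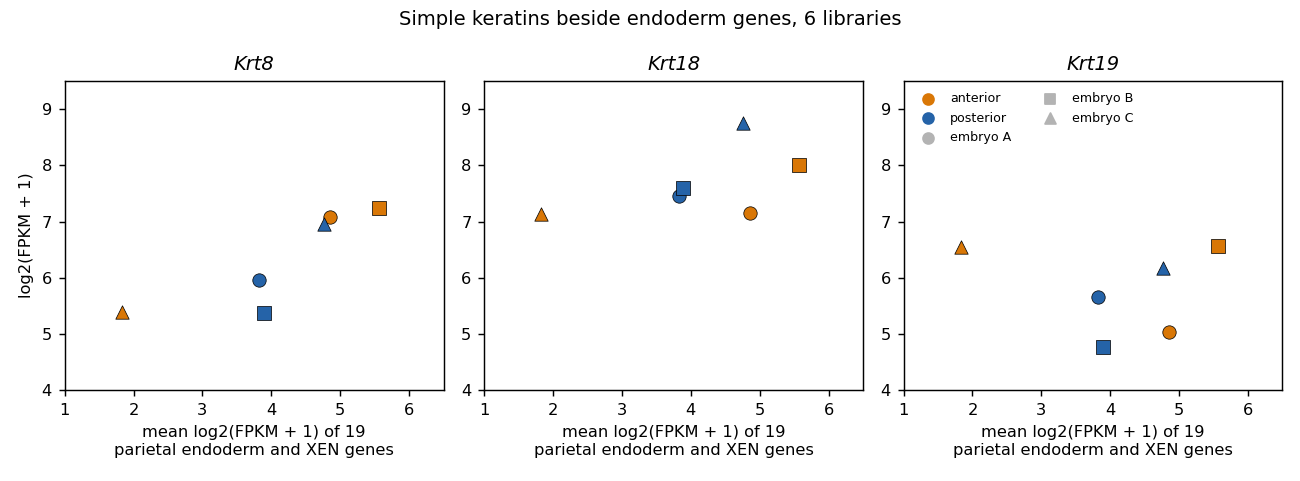
Level of Krt8, Krt18 and Krt19 in log2(FPKM + 1) on the vertical axis against the mean log2(FPKM + 1) of 19 parietal endoderm and XEN genes on the horizontal axis, 1 point per library, coloured by domain and shaped by embryo. In the Krt8 panel anterior A and B and posterior C form the upper right, and anterior C lies at the lower left.

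The genes whose pattern was most like each of the 7, by the highest Pearson correlation over the 6 libraries among 10913 other genes, were other than their partners and relatives. With so few libraries and so many genes, a highest r near 1 can arise without any relation. The names, and the absence of partners among them, are therefore description only. For Tfap2c they were Mrps10, Pecr and Txndc9 (r = 0.99 each). For Elf3 they were 2610507I01Rik (0.996), Pggt1b (0.96) and 2810046L04Rik (0.96). For Elf5 they were 2410141K09Rik, Adora2b and Hdhd3, each listed at 0 in the same 4 libraries as Elf5. Krt8 was closest to Zfp937, Crtc3 and Cuedc2, Krt18 to Plekha6, Numa1 and Parp10, Krt19 to Pdcd4, Tmem57 and Bbip1, and Krt7 to Pnpla3, Slc10a3 and Cdkl3. Among the 7 genes themselves the closest pairs were Tfap2c with Krt18 (r = 0.66) and Elf3 with Krt19 (0.56). Among all 10913 other genes, however, Krt18 came only at place 2422 for Tfap2c, and Krt19 at place 908 for Elf3. The most opposed were Tfap2c and Elf3 (-0.75), whose opposite directions were known when they were chosen.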

How the data were processed

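RNA was measured with Smart-seq2 (18 cycles of preamplification, per the labels' protocols) in 6 libraries. For mapping and counting, the labels' protocols give Ensembl 38.77 and HTSeq-count. TopHat2 2.0.4, Cufflinks 2.0.2 and mm10 appear in the submitters' processing notes, and the step that made the values is not given there. What the authors deposited is log2(FPKM + 1) per gene and library, a scale read from the values, where the planned test had assumed FPKM, so no further log was taken. Genes averaging 1 FPKM or more were fitted with limma 3.58.1 in R 4.3.3 (mean-variance trend, blocked by embryo, as a dissected individual gave both pieces, two-sided, Benjamini-Hochberg adjustment over all fitted genes, threshold 0.05), which was first tested on simulated data. The deviations of paired pieces from their domain means correlated at -0.07, 0.04 and -0.03 in embryos A, B and C. The block rests on the dissection, not on these values. Members and gene lists were chosen with earlier results of these data known. Named genes are the 7, their 3 closest genes each, paralogs, all keratin rows, the most abundant genes of each described list and listed trophoblast genes. Positions are from GENCODE M21 (GRCm38) and promoters from RefSeq. Alternatives were log2(FPKM + 0.1), no filter, quantile normalization, centring on the median gene, no trend, no block, and leaving out each embryo or anterior A.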

Additional observations from a re-analysis of the deposited data

How the results depend on the processing

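With no replicate block and under the 9 other settings tried, 0 genes were called between the domains, as in the paired fit. Among embryos, where the fit called 0, it called 3 genes (Rbp4, Snora31 and Snord8, named after their values were seen) with no filter, with quantile normalization and with centring on the median gene, and 0 to 4 when an embryo was left out (4 without embryo A). None is one of the 7 genes. Of 63 alternative values of the 7 genes' differences, 61 moved by less than 1 SD over embryos, and log2(FPKM + 0.1) moved Elf5 to 2.97 and Tfap2c to 5.43. This count is no measure of stability. No filter and no block return the same estimate, and leaving out 1 of 3 embryos cannot move a mean by 1 SD. For Krt7 the SD was 3.61, so that even 3.10 without embryo A, against 1.24, counted as unmoved. Tfap2c stayed between 3.46 and 5.43 and Elf3 between -2.96 and -1.61, while Krt7, Krt8, Krt18 and Krt19 each changed sign once, when an embryo was left out. Quantile normalization moved the median of all genes from 0.43 to -0.06 and those of the trophoblast stem cell, differentiated and epithelial lists to -0.58, -0.76 and -0.24. Centring on the median gene gave -0.43 for the stem cell, 0.28 for the shared and -0.29 for the epithelial list. Leaving out an embryo gave -0.50 to 0.45 for the differentiated list and 0.63 to 1.39 for the shared list. The number of the 7 genes whose domains do not overlap was 2, and 3 to 4 when an embryo or anterior A was left out (chosen after seeing the data). These were Elf5, Tfap2c, Elf3 and Krt8 without embryo C, where 31.1% and 14.0% of genes had all posterior or all anterior values on top. Krt7 and Krt19 joined Tfap2c and Elf3 without embryo A (19.9% and 13.2%) or anterior A alone (15.8% and 8.69%), and Krt18 did without embryo B (29.4% and 8.84%). The cause of these shifts was not tested. The unknown depth limits what a value of 0 says.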
